A study of Mus musculus with 2 samples.

Results

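Cluster 15 of the deposited cell table held 251 cells, all from the wounded mouse cornea. They were 251 of the 28867 cells of the series and 2.02% (exact Clopper-Pearson 95% interval 1.78 to 2.28) of the 12417 cells of the wounded library. A cell was taken as a member when the authors' clustering gave it the number 15, and no gene was used to pick members beyond that clustering, which was itself made from the same counts. The cells are described here as mononuclear phagocytes and are set against the wounded cells of clusters 14 (354 cells), 13 (710 cells) and 16 (215 cells).

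Corneas of male mice aged 6 to 8 weeks were digested with dispase, trypsin and collagenase and sequenced by 3′ droplet single-cell RNA-seq, in which a unique molecular identifier (UMI) marks each captured RNA molecule. The UW library pooled 4 unwounded mice, and the W library pooled 4 mice whose corneal epithelium had been wounded 24 h earlier. The strain is not given in the sources used here, nor is any transgene. The study describes an assignment of cells to mice, which was not used here. With 1 library per condition, nothing here has a replicate check, and no test or p-value was made.

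Levels are UMIs of a gene summed over the cells of a cluster, per 1000000 UMIs of that sum (CPM), or of a single cell where stated, with exact Poisson 95% intervals. Shares of cells carry exact Clopper-Pearson 95% intervals, and both kinds of interval cover counting error only. A gene was called higher or lower where its CPM ratio was 2 or more in that direction, among genes with at least 20 UMIs in the compared sets together. A sum of 0 was taken to allow up to 3 UMIs, so a ratio against it is a bound. Since the clusters were drawn from these counts, every ratio between them is a description.

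Mononuclear phagocytes are monocytes, the macrophages that arise from them or that settle in a tissue before birth, and the related dendritic cells. Macrophages engulf debris and bacteria, bind antibody-coated particles through Fc receptors, and release chemokines that draw further leukocytes. Dendritic cells specialise in loading peptides on MHC class II molecules and carrying them to T cells. In the cornea, phagocytes are sparse at rest and gather after the epithelium is injured.

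The W cells of cluster 15 had a median of 10144 UMIs (2359 to 29763) and 2931 genes, against medians of 8724 UMIs in cluster 14, 2509.5 in cluster 13 and 4411 in cluster 16. Their median mitochondrial share was 1.67%. The UW library placed 0 of its 16450 cells in cluster 15, which allows a share of up to 0.0182%. The 251 cells made 16.1% (14.3 to 18.0) of the 1559 W cells in clusters 13 to 17. Of the barcodes, 52 occurred in both libraries, 1 of them in cluster 15, and an earlier doublet column named 2 of the 251 cells. RNA of the corneal epithelium was found in all of these clusters: Krt12, the keratin of corneal epithelium, had a UMI in 100% of the cells of clusters 15 and 14. It stood at 1247 CPM in cluster 15, 6048 in cluster 14, 3584 in cluster 13 and 2106 in cluster 16, against 12352 over the W epithelial clusters.

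The 3 marker genes of the label were found in most of the cells. Fcgr1, the high-affinity IgG receptor CD64 (chr3:96282909-96293969 on GRCm38), had a UMI in 97.2% of the cells (94.3 to 98.9) and a level of 648 CPM (618 to 679). It stood at 159 CPM in cluster 14, 8.72 in cluster 13 and 0.962 in cluster 16, where 1 UMI was counted. Per cell, Fcgr1 ran from 0 through a median of 595 to 4944 CPM. With cells thinned to 2000 UMIs each, which left out shallower cells (0 of cluster 15, 58 of cluster 14, 126 of cluster 13 and 10 of cluster 16), a UMI of Fcgr1 was found in 66.9% of the cells kept in cluster 15, 27.7% in cluster 14 and 1.88% in cluster 13; without thinning, 0.465% of cluster 16 had one. Lyz2, the lysozyme of myeloid cells (chr10:117277331-117282321), was found in 99.2% of the cells at 18605 CPM, 3.14-fold above cluster 14. Apart from mitochondrial, ribosomal protein and haemoglobin genes, Lyz2 was the third most abundant gene of the cluster after Fth1, the ferritin heavy chain, and Tmsb4x, an actin-binding peptide. Reads of Lyz2 and its close copy Lyz1 may be split uncertainly between them. Cd74, the invariant chain of MHC class II, was found in 88.8% of the cells (84.3 to 92.5) at 3613 CPM, and it was 2.81-fold lower than in cluster 14. By these markers, the members were cells that carry Fcgr1 and Lyz2 almost throughout and Cd74 at very uneven levels, from 0 to 31613 CPM in single cells.

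**Figure D1:**
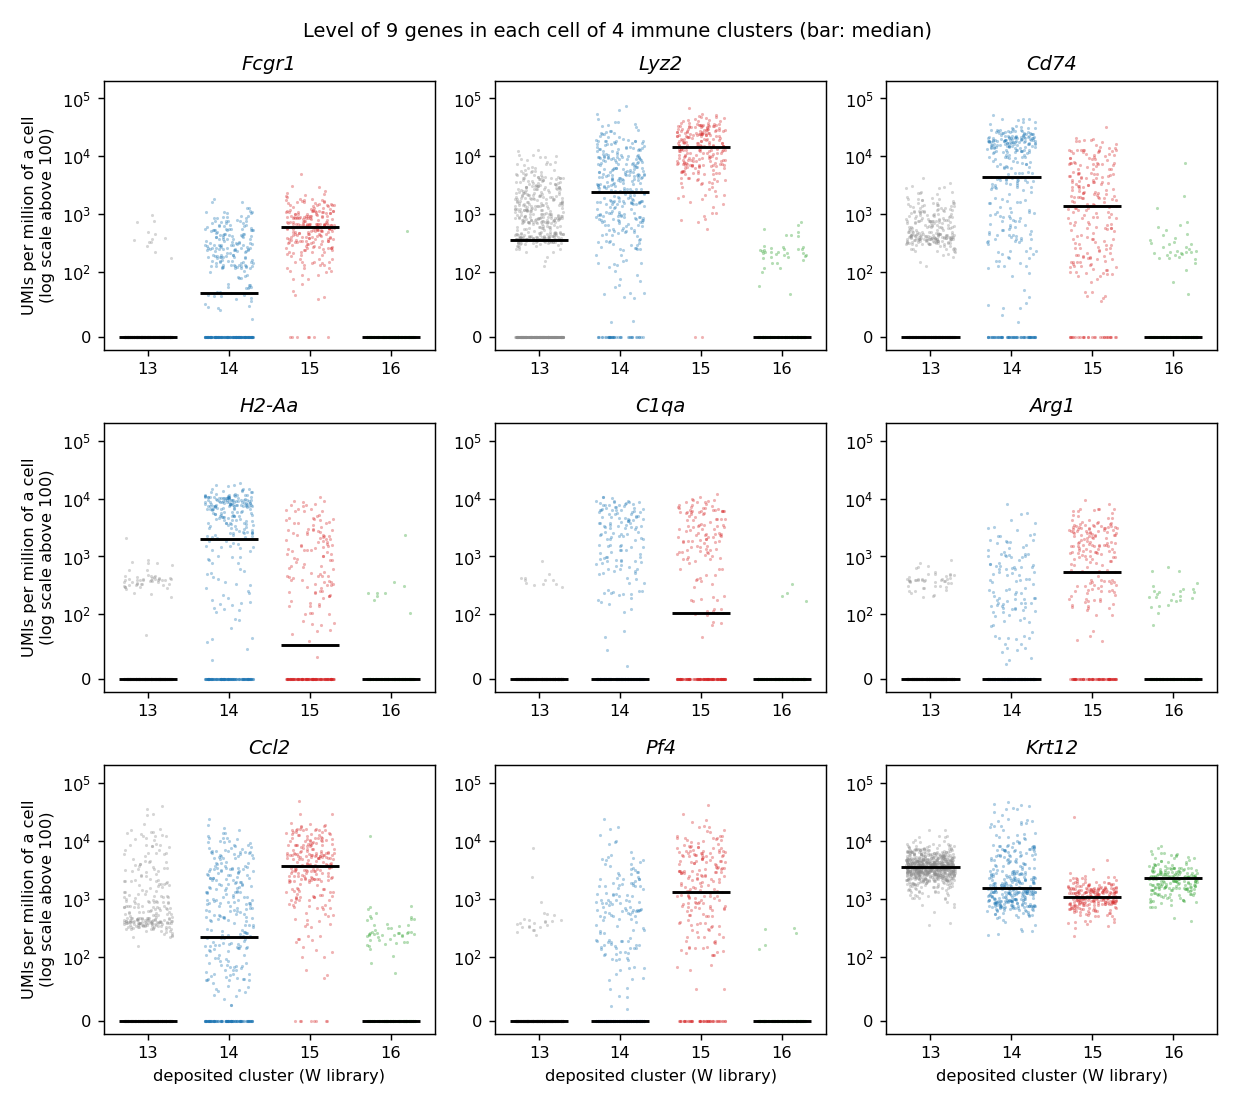
CPM of each cell (vertical axis, log scale above 100) for 9 genes in the W cells of clusters 13, 14, 15 and 16, with 1 point per cell and a bar at the median. Fcgr1, Lyz2, Ccl2, Pf4 and Arg1 have their highest medians in cluster 15, Cd74 and H2-Aa in cluster 14, and Krt12 is found in the cells of every cluster.

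The comparison with cluster 14, the other Cd74-rich cluster, asked how the phagocytes of the wound divided. Cluster 15 stood above it in macrophage and monocyte genes, Fc receptors, scavenger and lectin receptors and several chemokines, and below it in MHC class II and dendritic cell genes. Of 10275 genes, 510 (4.96%) were called higher in cluster 15 and 1317 (12.8%) lower, with a median log2 ratio of −0.02. The summed level of 8 epithelial genes was 4396 CPM in cluster 15 and 16315 in cluster 14, with all 8 detected in both, and 6 of the 8 were called lower in cluster 15. When library totals were counted only over genes no higher in the W epithelium than in both clusters, a scaling chosen after the data were seen, the counts were 212 higher and 2051 lower and the median log2 ratio moved by −0.37. The part of epithelial RNA in this comparison was not tested further.

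**Figure D2:**
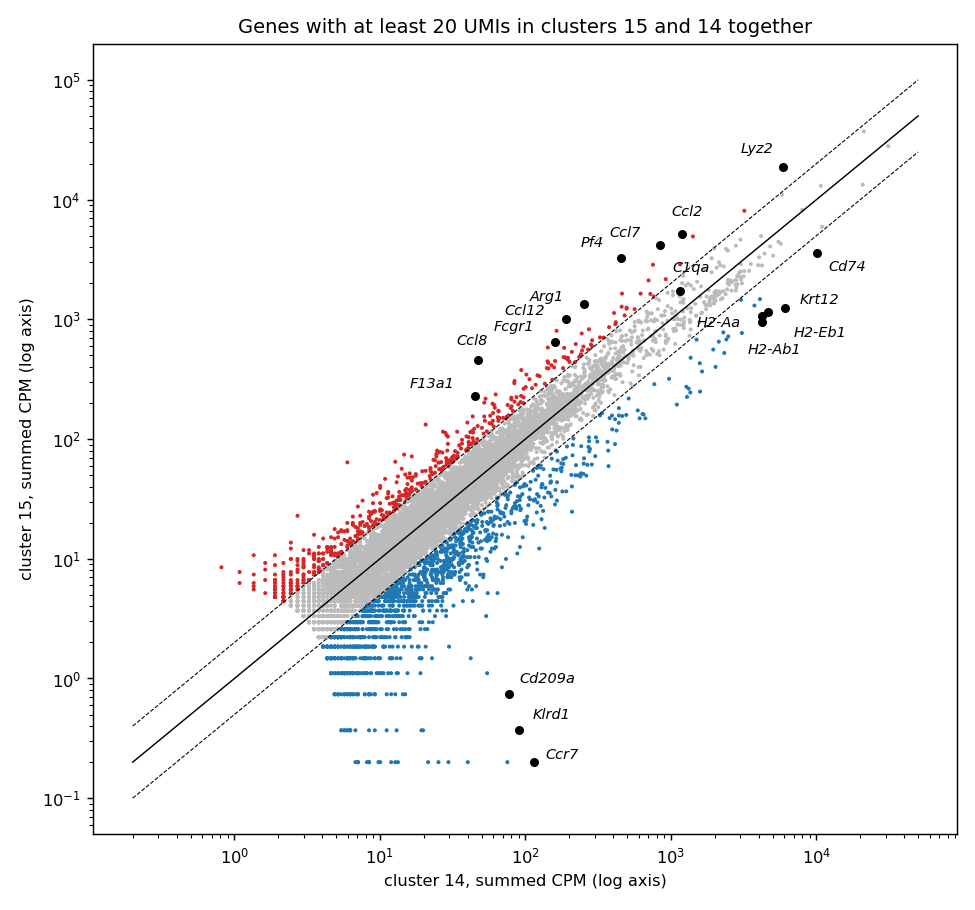
Summed CPM of each gene with at least 20 UMIs in both clusters together, cluster 15 on the vertical and cluster 14 on the horizontal log axis; the solid line marks equality, the dashed lines a ratio of 2, genes at 0 are drawn at 0.2, and black points are named genes. Red genes (510) were called higher and blue genes (1317) lower in cluster 15, with Ccl8, Pf4 and Arg1 far above the lines and Ccr7, Klrd1 and Cd209a far below.

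The MHC class II genes, which present peptides to helper T cells, were lower in cluster 15 than in cluster 14. Of 12 measured members of the list, 11 had enough UMIs, and 10 of these were called lower in cluster 15 and 0 higher, against 12.8% of all genes called lower. The list's median log2 ratio was −2.03. H2-Aa, the alpha chain of I-A, stood at 1059 CPM (1021 to 1098) in cluster 15 and 4219 (4153 to 4285) in cluster 14. H2-Ab1, its beta chain, stood at 958 against 4200 CPM, and H2-Eb1, the beta chain of I-E, at 1150 against 4644. These were 3.98-fold, 4.38-fold and 4.04-fold lower, so the 3 chains differed from cluster 14 by nearly the same factor. H2-DMa and H2-DMb1, which load peptide on class II, were 3.21-fold and 4.09-fold lower. Ciita, the master transactivator of these genes, stood at 7.01 against 36.4 CPM. Of the genes of H2-O, which restrains H2-DM, H2-Oa had 0 UMIs in cluster 15 against 109 in cluster 14, a level at least 26.7-fold lower. Ctss, the cathepsin that trims the invariant chain, was the member that was not called, at 1554 against 1148 CPM.

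Within cluster 15 the class II genes split the cells rather than being low in all of them. H2-Aa had a UMI in 50.6% of the cells (44.2 to 56.9), and its per-cell level ran from 0 through a median of 53.3 to 10736 CPM. The 25 cells with the most H2-Aa held 60.6% of its UMIs. In cluster 16, whose leading genes are those of T cells, the share with H2-Aa was 4.19%, and in cluster 13 it was 7.46%. Among the cells kept by thinning to 2000 UMIs, the shares were 34.3% in cluster 15, 62.2% in cluster 14, 6.51% in cluster 13 and 2.44% in cluster 16. Detection in cluster 15 was therefore above that in cells that lack class II at equal depth.

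The class II genes lie side by side, H2-Ab1 at chr17:34257689-34269419, H2-Aa at chr17:34282744-34287823 and H2-Eb1 at chr17:34305867-34316674. RefSeq promoters of GRCm38.p6 were matched for 2 of these 3 genes, H2-Aa and H2-Eb1, and are shown because their levels moved together between clusters and groups of cells. Each runs 5′ to 3′ on the gene's strand, and capitals mark the letters CCAAT or, on the other strand, ATTGG, the core of the Y box of class II promoters. The H2-Aa window is chr17:34287774-34288073 on the minus strand, and the H2-Eb1 window is chr17:34305617-34305916 on the plus strand.
H2-Aa: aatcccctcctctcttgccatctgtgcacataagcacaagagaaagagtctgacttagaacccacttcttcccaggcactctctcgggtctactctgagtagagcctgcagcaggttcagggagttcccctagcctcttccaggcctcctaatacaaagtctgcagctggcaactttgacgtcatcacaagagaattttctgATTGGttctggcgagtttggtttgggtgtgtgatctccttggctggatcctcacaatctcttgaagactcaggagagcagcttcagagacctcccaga
H2-Eb1: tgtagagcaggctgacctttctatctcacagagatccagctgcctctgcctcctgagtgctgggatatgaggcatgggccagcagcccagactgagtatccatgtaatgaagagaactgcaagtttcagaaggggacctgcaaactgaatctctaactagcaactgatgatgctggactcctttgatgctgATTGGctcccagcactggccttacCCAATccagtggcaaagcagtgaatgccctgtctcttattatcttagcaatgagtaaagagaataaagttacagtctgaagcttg
The match in H2-Aa began 48 bases before the annotated start, and those in H2-Eb1 began 59 and 35 bases before it. Of 32851 promoters of the same length, 37.4% held the letters on either strand, so the match is common and describes these windows only.

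Most genes of the dendritic cell lists were lower in cluster 15 than in cluster 14, and several defining ones were at or near 0. Flt3, the receptor for the growth factor of dendritic cells, and Zbtb46, their lineage transcription factor, had 0 UMIs in 251 cells, against 79 and 26 in cluster 14. Ccr7, the receptor that guides mature dendritic cells to lymph nodes, had 0 UMIs against 423. Its level was at least 104-fold lower and the first by ratio among lower genes of at least 100 CPM. Ccl17, Ccl22 and Il12b, chemokines and a cytokine subunit of mature dendritic cells, also had 0 UMIs. Besides Ccr7, the first 10 lower genes by ratio included Il1r2, Lmo7, Clic3, Krt6b, Nccrp1, Sprr1a, Zmynd15, Slurp1 and Mal. Over the W epithelial clusters Il1r2 and Zmynd15 stood at 6.58 and 0.992 CPM. The others stood there at 266 (Clic3) to 3355 CPM (Krt6b), each above its level in cluster 14. Xcr1 and Itgae of cDC1 cells were at 0, and Cd209a of cDC2 or monocyte-derived dendritic cells had 2 UMIs against 284. Cd207, the langerin of Langerhans cells, had 3 UMIs against 70. Over the lists, 6 of 6 shared dendritic cell genes, 6 of 8 cDC1, 7 of 9 cDC2, 11 of 15 mature and 6 of 7 Langerhans genes were called lower. Of all genes, 12.8% were called lower. The shared and Langerhans lists summed to 251 and 1352 CPM over the W epithelial clusters, above their 223 and 700 CPM in cluster 14. The cDC1, cDC2 and mature lists summed to 75.1, 22.4 and 199 CPM over the W epithelial clusters. The part of epithelial RNA in these counts was not tested. The lists were not empty in cluster 15, with 11 of 16 mature, 9 of 10 cDC2 and 7 of 10 cDC1 genes detected and summed levels of 818, 466 and 288 CPM against 1208, 752 and 458 in cluster 14. Cd63, a lysosomal membrane protein of the mature list found in many cell types, stood at 559 against 451 CPM. Sirpa, a cDC2 list gene that macrophages also carry, was called higher at 284 against 118 CPM, and Irf8 stood at 130 against 193 CPM.

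The macrophage and monocyte lists pointed the other way. Of 17 macrophage genes with enough UMIs, 11 were called higher than in cluster 14 and 0 lower, against 4.96% of all genes, and of 12 monocyte genes 7 were higher and 0 lower. The median log2 ratio of the macrophage genes was 1.29. Adgre1, the F4/80 antigen, stood at 293 against 83.9 CPM, and Csf1r, the receptor for macrophage colony-stimulating factor, at 218 against 115, which did not reach the 2-fold call. Mrc1, the mannose receptor, stood at 201 against 52.1 CPM. Trem2, a lipid receptor, was 3.17-fold higher and Ms4a7 2.44-fold higher. C1qa, C1qb and C1qc, the chains of complement component C1q, were not called. Apoe, at 3876 against 2388 CPM, was not called either.

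Among monocyte genes, F13a1, the coagulation factor XIII A subunit, stood at 230 against 44.8 CPM, a ratio of 5.14. Ly6c2, a surface antigen of classical monocytes, stood at 578 against 185 CPM and was found in 52.2% of the cells (Ly6c2 and its near copy Ly6c1 may share reads). Thbs1, a matrix glycoprotein, stood at 1129 against 406 CPM, and Cd14, the co-receptor for bacterial endotoxin, at 1630 against 722. Ccr2, which lets monocytes leave the marrow and follow Ccl2, stood at 170 against 111 CPM and was not called. Macrophage and monocyte genes were thus both above cluster 14 in the sum of the same 251 cells.

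The receptors through which phagocytes take up and sense material were higher as well. Of all genes, 4.96% were called higher and 12.8% lower. Of 6 Fc receptor genes, Fcgr1, Fcgr2b, Fcgr3 and Fcgr4 were called higher, with ratios of 4.08, 2.07, 2.52 and 2.77, and 0 lower. Of 9 complement genes 6 were higher, among them C3ar1 (346 against 101 CPM) and C5ar1 (446 against 142 CPM), the receptors for the complement fragments C3a and C5a. The C1q genes were those not called. Of 18 genes of pattern recognition and scavenging 11 were higher and 2 lower, the lower count being near the share of all genes. Msr1, a scavenger receptor for modified lipoproteins, was 4.03-fold higher, Clec12a, an inhibitory lectin, 3.63-fold, and Clec4d and Clec4n, activating lectins, 2.80-fold and 2.18-fold. Of 17 lysosomal genes 8 were higher and 0 lower, including Ctsb (2113 against 702 CPM), Ctsl (2876 against 1156 CPM) and Lgmn (1274 against 458 CPM), proteases that degrade engulfed protein. With totals counted without genes higher in the W epithelium, 3 lysosomal, 2 Fc receptor, 7 pattern recognition and 4 monocyte genes were called higher, and Sirpa was no longer called.

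The chemokines held 5 of the 10 largest ratios over cluster 14 among genes of at least 100 CPM. Of 20 genes 12 were called higher than in cluster 14 and 3 lower, with a median log2 ratio of 1.37. The shares of all genes were 4.96% higher and 12.8% lower, and the lower count is near that share. Ccl8 stood at 458 CPM (433 to 484) against 47.2 (40.5 to 54.8), a ratio of 9.71 (8.28 to 11.4), and Pf4, the platelet factor CXCL4 that macrophages also make, at 3237 against 450 CPM. Ccl2 and Ccl7, which attract Ccr2-bearing monocytes, stood at 5168 and 4213 CPM against 1193 and 843. Ccl12, which acts on the same receptor, was 5.36-fold higher. The other genes among these 10 were Lyz1 (found in 9.56% of the cells), Arg1, F13a1, the acute phase gene Saa3 (803 against 164 CPM) and the complement component C3 (115 against 27.1 CPM).

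Ccl2, Ccl7, Ccl12 and Ccl8 are neighbours, at chr11:82035571-82037453, chr11:82045712-82047525, chr11:82101845-82103400 and chr11:82115185-82116799, and all were called higher than in cluster 14. They did not share 1 pattern among the cells: Ccl2 was found in 96.8% of the cells and Ccl7 in 94.4%, but Ccl12 in 70.1% and Ccl8 in 25.5%. The 25 cells with the most Ccl8 held 95.3% of its UMIs, against 33.4% for Ccl2. Ccl6 and Ccl9, a further pair on the same chromosome, stood at 2857 and 1640 CPM against 752 and 461. Of the neutrophil attractants, Cxcl2 stood at 8065 against 3193 CPM, Cxcl3 at 1640 against 618 and Cxcl1 at 460 against 195. The 3 lower chemokines were Ccl17, Ccl22 and Ccl24.

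Genes of tissue repair and inflammation were not all higher. The counts below stand beside 4.96% of all genes called higher and 12.8% called lower. Arg1, the arginase that diverts arginine from nitric oxide, stood at 1333 CPM (1290 to 1377) against 251, and it was found in 68.5% of the cells. It stood at 175 CPM over the W epithelial clusters. Spp1, the matrix cytokine osteopontin, stood at 4928 against 1415 CPM, and Hmox1, which degrades heme, at 581 against 142. Osm, an interleukin-6 family cytokine, stood at 105 against 39.3 CPM. Nos2, the inducible nitric oxide synthase, had 31 UMIs in cluster 15 (11.4 CPM) against 16 in cluster 14. Of 19 cytokines and growth factors 5 were higher and 5 lower, and Il1b stood at 665 against 749 CPM. Of 18 interferon-stimulated genes Irf7, Cxcl9 and Ifi207 were higher and 0 lower. No gene of 6 in the phagocyte oxidase list was called, with ratios from 1.32 for Ncf4 to 1.75 for Cyba.

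Among lineage transcription factors Irf4, Batf3 and Zbtb46 were lower than in cluster 14, and Maf, a factor of macrophage identity, was higher at 236 against 62.4 CPM. Among chemokine receptors Ccr7 was lower and Cmklr1, the receptor for chemerin, higher, found in 37.1% of the cells. Of 9 co-stimulatory and checkpoint genes 3 were lower, and Cd86, a ligand of CD28, stood at 186 against 145 CPM. Of 14 genes of S and G2/M phase 2 were lower and 0 higher, and Mki67, a marker of dividing cells, had 18 UMIs in the 251 cells. Jun and Hspa1b, of 12 immediate early genes of tissue dissociation, were lower. Both counts of lower genes are near the 12.8% of all genes called lower, so neither sets its list apart. The stroma list (0 of 6 called) summed to 655 CPM against 968, and the T cell, B cell and mast cell lists summed to 10.3, 9.96 and 1.11 CPM. Cd3e, Trac, Trdc, Cd79a, Pax5, Cpa3, Mcpt4, Tpsb2 and Gata2 had 0 UMIs. Of the plasmacytoid dendritic cell genes 3 of 5 were lower, of the neutrophil genes 5 of 9 were lower and Mmp8 higher (454 against 939 CPM summed), of the endothelial and red cell genes 0 of 3 were called, and of the NK and innate lymphoid genes Rora was lower.

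**Figure D3:**
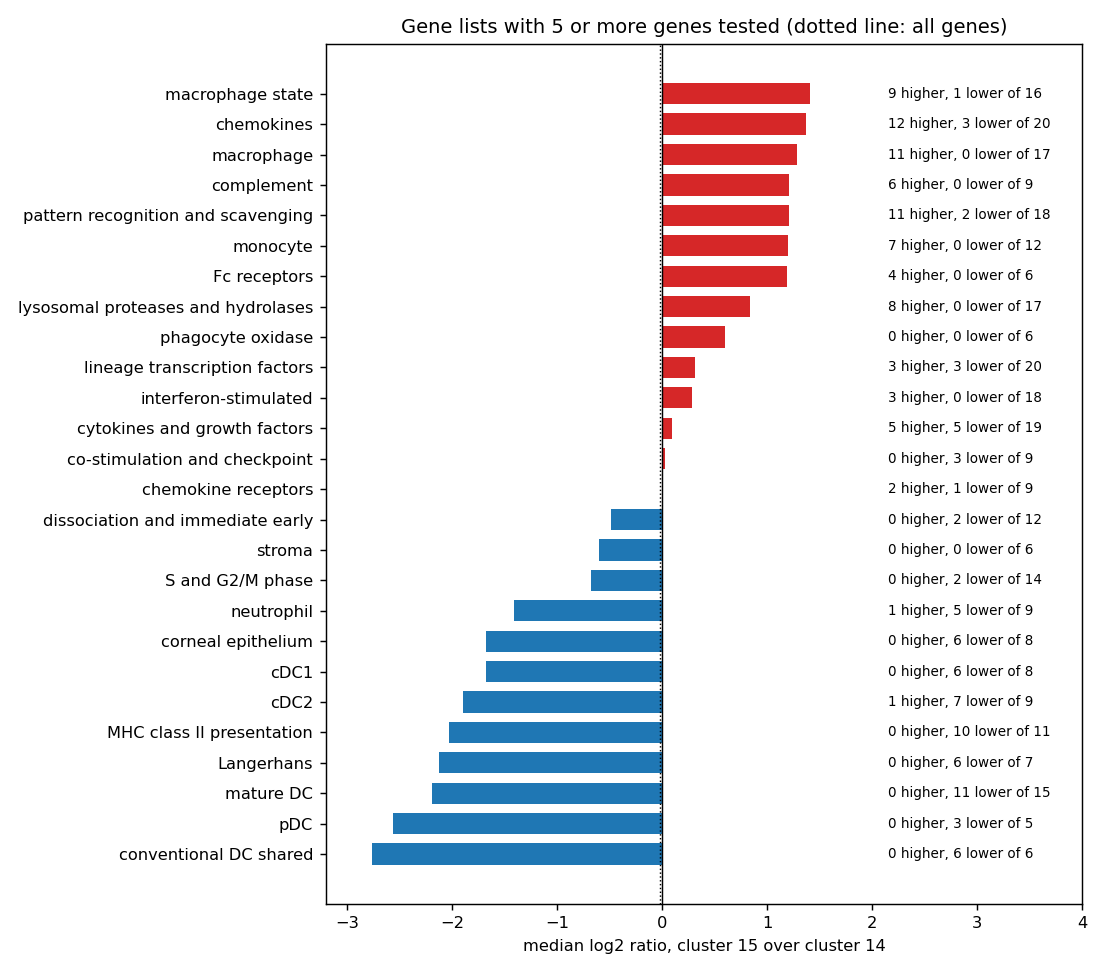
Median log2 ratio of cluster 15 over cluster 14 for the gene lists with 5 or more genes past the filter of 20 UMIs, with the number called higher and lower; the dotted line is the median over all 10275 genes. The macrophage state, chemokine and macrophage lists have the highest medians (1.41, 1.37 and 1.29), and the shared dendritic cell list has the lowest of those shown (−2.76), with MHC class II at −2.03.

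Cluster 15 was also set against clusters led by genes of other lineages. Against cluster 13, in which S100a8 stood at 13612 CPM, 1872 of 9437 genes (19.8%) were called higher in cluster 15 and 1436 (15.2%) lower. Of 12 neutrophil genes 11 were lower and 0 higher, and of 17 macrophage genes 16 were higher. The summed level of the neutrophil list was 454 CPM in cluster 15 and 37680 in cluster 13. S100a8 stood at 158 CPM in cluster 15 and at 156 CPM over the W epithelial clusters, and Ly6g and Retnlg had 0 UMIs. S100a8 was uneven in cluster 15, from a per-cell median of 0 to 13494 CPM, and 25 cells held 76.7% of its UMIs. Of 18 chemokines 14 were higher than in cluster 13, among them Ccl2 at 5168 against 935 CPM, and Ccl3, Ccl4 and Cxcl2 were lower, Cxcl2 at 8065 against 23503 CPM. Of 20 cytokines and growth factors 5 were higher and 4 lower, with Il1b at 665 against 2736 CPM, and Osm, which was not called, stood at 105 against 133 CPM.

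Against cluster 16, in which Cd3g stood at 1161 CPM, 1453 of 9250 genes (15.7%) were called higher in cluster 15 and 1934 (20.9%) lower. TMM scaling gave 1950 higher and 1211 lower with the median log2 ratio moved by 0.35, median-of-ratios scaling gave 1813 and 1359, and totals without genes higher in the W epithelium gave 1063 and 3206. The balance of the directions thus rested on the scaling. All 12 T cell genes were lower in cluster 15 and all 17 macrophage genes were higher. Cd3g had 1 UMI in the 251 cells, Cd3e, Nkg7 and Gzmb had 0, and Ccl5 was the 1 chemokine of 18 called lower, at 631 against 3390 CPM.

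Grouping them on 1000 variable genes and 10 principal components (Ward linkage, 3 groups) gave 215 cells, 35 cells and 1 cell. The groups are named here by a gene whose summed level was highest in them. The Arg1 group (215 cells, 85.7% of the cluster, 80.7 to 89.7) and the Fcrls group (35 cells, 13.9%, 9.91 to 18.9) had like depth, with medians of 10006 and 11531 UMIs. The single remaining cell held 19904 UMIs, with Krt16 at 36525 and Krt12 at 25673 CPM beside 7838 CPM of Lyz2. The groups were made from these counts, so the values below describe them and no test between them was made.

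The Fcrls group was the richer in macrophage, C1q and class II genes. Of 17 macrophage genes, 14 were called higher in the Fcrls group than in the Arg1 group and 0 lower, where 9.29% of 7888 genes were higher and 10.1% lower. C1qa, a chain of the complement component C1q, had a UMI in 35 of 35 cells at 6721 CPM (6471 to 6978), against 97 of 215 cells and 858 CPM (821 to 897) in the Arg1 group. Fcrls, an Fc receptor-like gene of tissue macrophages and microglia, was found in 31 of 35 cells and in 4 of 215. Apoe, a lipid carrier, stood at 14554 against 1994 CPM, Gas6, the bridge between dying cells and their receptors, at 315 against 11.8, and Mrc1 at 490 against 151. Csf1r stood at 453 against 176 CPM, Adgre1 at 606 against 239, Trem2 at 493 against 141, Ms4a7 at 1050 against 377, Folr2 at 128 against 53.0, and Cx3cr1, the fractalkine receptor, at 185 against 12.7. Cd163, a haemoglobin scavenger receptor, was found in 17.1% of the Fcrls group and in 0 cells of the Arg1 group. Fcgr1, a marker of the label, went the other way. Of 6 Fc receptor genes, Fcgr1 was called lower in the Fcrls group and Fcgrt higher.

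Class II genes were higher in the Fcrls group too, but they were not confined to it. A single cell of the Arg1 group held 9037 CPM of H2-Aa, against 10736 CPM in the highest cell of the Fcrls group. H2-Aa had a UMI in 35 of 35 cells of the Fcrls group at 2952 CPM (2787 to 3124), against 91 of 215 cells and 730 CPM in the Arg1 group. H2-Ab1 stood at 2449 against 699 CPM and H2-Eb1 at 3706 against 705, and 6 of 7 class II genes were called higher and 0 lower. Of all genes, 9.29% were called higher there. Cd74 stood at 8404 against 2784 CPM. The 3 class II chains stood below their levels in cluster 14 in the Fcrls group as well. Mgl2 and Clec10a, lectins of macrophages and cDC2 cells, stood at 138 and 59.1 CPM against 36.3 and 13.6, while Flt3 and Zbtb46 were at 0 in both groups.

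Most monocyte genes were lower in the Fcrls group, and of 15 macrophage state genes 9 were lower there, including Arg1 and Spp1, and 4 higher (Mrc1, Cd163, Fcrls and Trem2). Igf1, a growth factor, stood at 133 CPM in the Fcrls group and 1.75 in the Arg1 group. Ly6c2 had 0 UMIs in the 35 cells of the Fcrls group and stood at 683 CPM in the Arg1 group, where 130 of 215 cells had it, a level at least 92.4-fold higher. Of 12 monocyte genes, 9 were called lower in the Fcrls group and 1, Cx3cr1, higher, beside 10.1% and 9.29% of all genes. Ccr2 stood at 196 CPM in the Arg1 group and 22.2 in the Fcrls group, Ms4a4c at 769 and 118, and Thbs1 at 1326 and 56.7. Arg1 stood at 1578 and 7.39 CPM, where the lower value is 3 UMIs and the ratio of the Fcrls to the Arg1 group is 0.00468 (0.000965 to 0.0137). Spp1 stood at 5832 and 76.4 CPM, and Cxcl3 at 1944 and 4.93.

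Chemokines divided between the groups, where 9.29% of all genes were higher in the Fcrls group and 10.1% lower. Of 18, 4 were higher in the Fcrls group (Ccl4, Ccl5, Ccl8 and Cxcl10) and 6 lower (Ccl2, Ccl6, Ccl9, Cxcl1, Cxcl3 and Ppbp). Ccl8 stood at 2279 CPM in the Fcrls group, where 20 of 35 cells had it, and at 138 in the Arg1 group. Single cells of the Fcrls and Arg1 groups reached 21166 and 17805 CPM of Ccl8. Ccl7 and Ccl12, its neighbours, were not called, at 3102 and 993 CPM in the Fcrls group against 4427 and 1002. Of 18 interferon-stimulated genes 7 were higher in the Fcrls group, including Rsad2 (641 against 127 CPM) and Ifit2 (209 against 17.9 CPM), and Irf7 and Gbp4 were lower. Ifnb1, interferon beta, stood at 227 against 3.94 CPM but came from 7 of the 35 cells, and Cxcl13, the B cell attractant, came from 3 cells. The leading genes of a small group therefore rest in part on few cells.

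**Figure D4:**
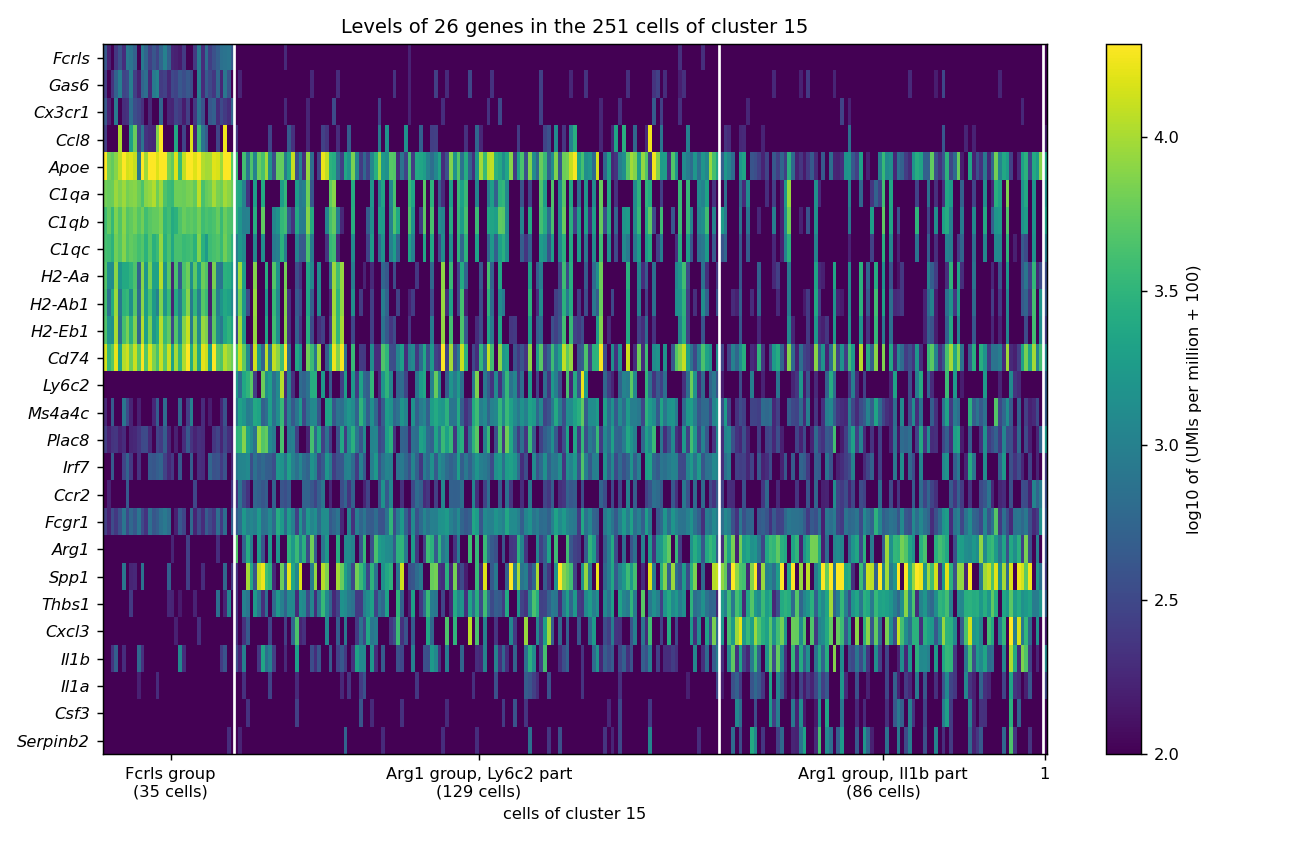
Levels of 26 genes (rows, log10 of CPM + 100) in the 251 cells of cluster 15 (columns), ordered by group, with white lines between groups. Fcrls, Apoe and C1q genes fill the 35 cells at the left, Ly6c2, Ms4a4c and Irf7 are strongest in the 129 cells of the Ly6c2 part, and Cxcl3, Spp1 and Il1b in the 86 cells of the Il1b part.

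With 4 groups in place of 3, the Arg1 group alone divided, into a Ly6c2 part of 129 cells and an Il1b part of 86 cells. Their medians were 9196 and 11843.5 UMIs, and their median mitochondrial shares 1.23% and 2.05%. The part of depth and mitochondrial share in this division was not tested. Ly6c2 stood at 1083 CPM in the Ly6c2 part and 226 in the Il1b part, and Il1b, the secreted pyrogen interleukin-1 beta, at 315 and 1268. The parts were named by these levels, and Il1b was not among the 10 leading genes of its part. Of 7374 genes, 2.01% were called higher in the Il1b part and 6.54% lower, with a median log2 ratio of −0.13. Of 7 class II genes 7 were lower in the Il1b part and 0 higher, with H2-Eb1 at 262 against 1093 CPM, and 8 of 17 interferon-stimulated genes were lower and 0 higher, with Irf7 at 251 against 792 CPM.

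Of 18 chemokines 6 were higher in the Il1b part and 3 lower (Ccl5, Ccl8 and Cxcl9), and of 14 cytokines and growth factors 3 were higher and 1 lower. Of all genes, 2.01% were higher in the Il1b part and 6.54% lower. Ccl5 stood at 60.9 CPM in the Il1b part and 810 in the Ly6c2 part, and Ccl8 at 25.3 and 237. The Ccl8 level of the Ly6c2 part rests in part on 1 cell with 17805 CPM. Csf3, the granulocyte growth factor, stood at 258 CPM against 13.1 in the Ly6c2 part, Il1a at 219 against 24.6, Cxcl1 at 943 against 118 and Cxcl3 at 3432 against 641. Ptgs2 and Ptges, enzymes of prostaglandin E synthesis, stood at 392 and 187 CPM against 73.1 and 31.2. Spp1 was 2.77-fold higher, and Arg1, at 2111 against 1112 CPM, was 1.90-fold higher and not called. The neutrophil genes S100a8, S100a9, Mmp9 and Mmp8 were called higher too, S100a8 at 321 against 61.6 CPM. In cluster 15 as a whole, 25 cells held 76.7% of the S100a8 UMIs, and Ly6g and Retnlg were at 0. Whether neutrophil RNA had a part in the division was not tested. C1qa stood at 406 CPM in the Il1b part and 1255 in the Ly6c2 part.

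**Figure D5:**
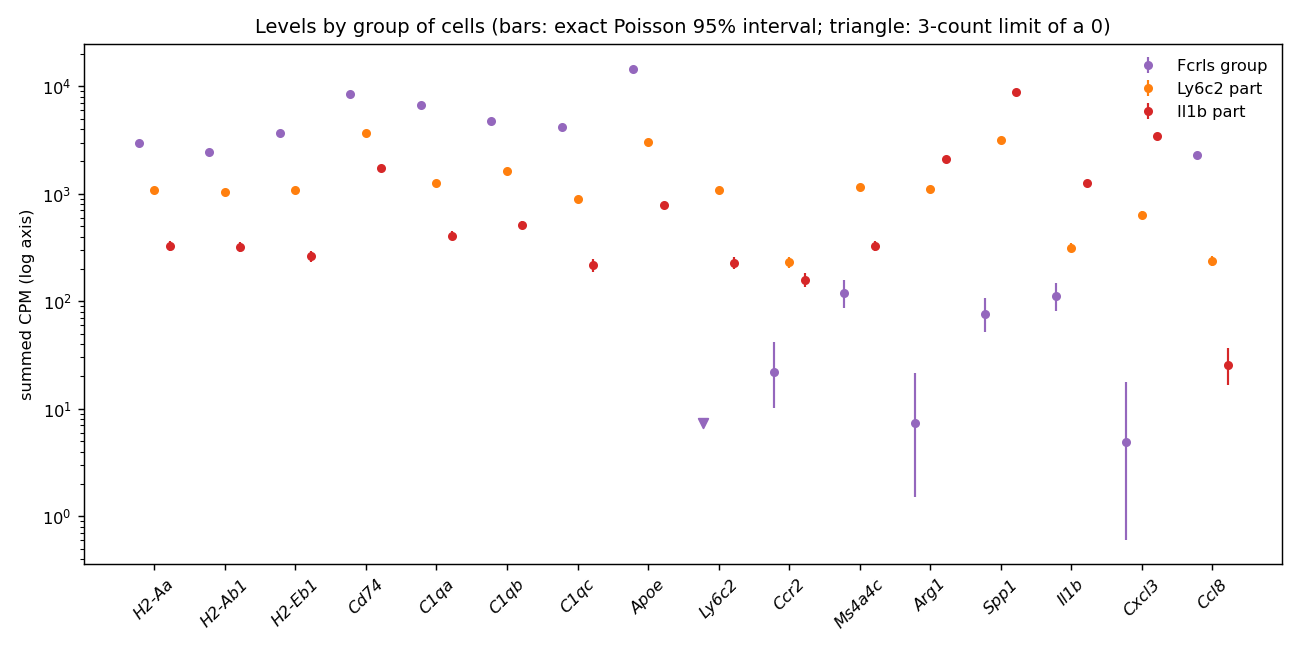
Summed CPM (log axis) of 16 genes in the Fcrls group (35 cells), the Ly6c2 part (129 cells) and the Il1b part (86 cells), with exact Poisson 95% intervals; a triangle marks the 3-UMI limit of a sum of 0. Class II and C1q genes descend from the Fcrls group through the Ly6c2 part to the Il1b part, and Arg1, Spp1, Il1b and Cxcl3 run the other way.

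Pairs of genes were counted in the same cells. Arg1 and C1qa were both found in 74 of 251 cells (29.5%), and Arg1 was found in 83.1% of the cells without C1qa and 55.6% of the cells with it. In cluster 16, Arg1 was found in 11.6% and C1qa in 1.86% of the cells, and the part of free RNA in the shared detection was not tested. Ly6c2 and Arg1 were found together in 102 cells, with Ly6c2 in 59.3% of the cells with Arg1 and 36.7% of those without. Fcrls and Arg1 shared 4 cells and Fcrls and Ly6c2 shared 2, whereas 35 of the 35 cells with Fcrls had C1qa. H2-Aa went with C1qa, with both in 96 cells and neither in 87, and 75.6% of the cells with H2-Aa had C1qa against 29.8% of those without. Osm was found with Arg1 in 88 cells and without it in 31, with Arg1 in 73.9% of the cells with Osm and 63.6% of those without. After thinning to 2000 UMIs per cell, Arg1 and C1qa shared 17.9% of the cells and Fcrls and Arg1 0.797%. Ly6c2 was then found in 36.2% of the cells with Arg1 and 34.5% of those without, so the difference was small at equal depth. Arg1 was then found in 76.1% of the cells with Osm and 50.2% of those without.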

How the data were processed

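UMIs were counted by the authors in Cell Ranger 3.1.0, and the deposited counts carry no normalization. They form 1 table of 28867 cells by 20198 genes, beside a table of cells made in Seurat that gives library, cluster and doublet calls. The study names an mm10 reference and the V2 kit, while the processing notes list mm9 and the labels the v3 kit. All 28867 cells met the limits the study states (500 to 8000 genes, at most 10% mitochondrial UMIs). Before deposit the authors discarded doublets, along with cells marked by dissociation genes, and no doublets were called again here. Every cell's counts summed to its deposited UMI total.

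Counts were summed over the W cells of each deposited cluster (2710129 UMIs in cluster 15, 3685093 in 14, 1835459 in 13 and 1039178 in 16) in Python 3.11.15 with numpy 2.4.6, scipy 1.17.1 and pandas 2.3.3, under the rules given in the report. In 3′ counting a molecule gives 1 UMI whatever its length. Genes were named from 31 lists (at least 50 CPM in a compared cluster, or defining markers at or near 0), as the 10 largest and 10 smallest ratios per comparison among genes with at least 100 CPM in 1 cluster, and among the 30 most abundant, where mitochondrial, ribosomal protein and haemoglobin genes were left out. Genes named below these levels were chosen after their values were seen. Members and lists were chosen with earlier results of these data known. For groups within the cluster, counts per 10000 UMIs were log-transformed. Positions are those of GENCODE M21 (GRCm38), in which 19881 genes were found by symbol. Alternatives used, in R 4.3.3, the size factors of DESeq2 1.42.0 (median of ratios) and the TMM factors of edgeR 4.0.16, other filters of cells and genes, equal weight per cell, thinning to 2000 UMIs and other groupings. The computations were tested on simulated data. Some genes of the lists are not reported here.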

Additional observations from a re-analysis of the deposited data

How the results depend on the processing

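Of 750 alternative values of log2 ratios for 75 pairs of a named gene and a comparison, 602 stayed within the counting interval, 148 moved beyond it and 0 changed sign where a gene had been called. Counts of called genes followed the filter: with 1 UMI they were 1057 higher and 2179 lower against cluster 14, 2732 lower against cluster 13 and 3714 lower against cluster 16, and with 100 UMIs 277 and 508 against cluster 14, 883 and 587 against cluster 13 and 853 and 686 against cluster 16. Thinning, which leaves fewer genes tested, gave 403 lower against cluster 14, 1196 higher against cluster 13, and 957 higher and 1100 lower against cluster 16. Against cluster 14, 183 of the 347 genes higher after thinning were among the 510, and 258 of the 403 lower were among the 1317. With equal weight per cell these were 361 of 503 higher and 999 of 1167 lower. The genes called, and not only their number, thus changed with depth and weighting. TMM factors gave 1211 lower against cluster 16. Totals without genes higher in the W epithelium, chosen after the data were seen, gave 212 higher and 2051 lower against cluster 14 and 3206 lower against cluster 16, and left 8 macrophage, 10 chemokine, 4 monocyte and 3 lysosomal genes called higher than in cluster 14 and 10 class II genes lower. The W cells of clusters 13 to 17 as denominator gave a share of 16.1%, and 4 groups a largest remaining group of 129 cells. The 35 cells of the Fcrls group stayed together with 20 principal components (39 cells) and with 2000 variable genes (42 cells). Cuts into 2 and 4 groups used the same Ward linkage as the 3 groups. A cut into 2 could therefore not have split these 35 cells, and the cut into 4 left them whole.

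After thinning, cells with both genes made 17.9% for Arg1 and C1qa, 14.3% for Ly6c2 and C1qa, 19.9% for Ly6c2 and Arg1, 26.7% for H2-Aa and C1qa and 13.9% for Arg1 and Osm. Shares with a UMI were 66.9% for Fcgr1, 71.3% for Cd74, 34.3% for H2-Aa, 45.8% for C1qa, 35.5% for Ly6c2 and 55.0% for Arg1. Without the 1 cell led by epithelial genes, also chosen afterwards, 512 genes were higher and 1335 lower than in cluster 14. Against cluster 13, TMM and median-of-ratios scaling moved the median log2 ratio by −0.10 and −0.16. Depth limits genes of few UMIs: with 1 library per condition and no assignment of cells to animals used here, no error between animals or libraries was had. No paired analysis was possible because each condition is 1 library.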
